A study of Mus musculus with 9 samples.

Results

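Oxidative phosphorylation genes were examined by complex in 4T1 mammary tumors treated with the FAK inhibitor BI 853520 (abbreviated BI). The set held every gene in the count table whose symbol began with Ndufa, Ndufb, Ndufc, Ndufs or Ndufv (complex I), was Sdha, Sdhb, Sdhc or Sdhd (complex II), began with Uqcr or was Cyc1 (complex III), began with Cox4, Cox5, Cox6, Cox7 or Cox8 (complex IV), or began with Atp5 (complex V). The rule reads gene symbols alone. It gave 93 of the 18755 genes, of which 47 belonged to complex I, 4 to complex II, 9 to complex III, 16 to complex IV and 17 to complex V. The prefixes also caught 8 assembly factors (Ndufaf1 to Ndufaf8), which help to build complex I and are not part of it, and Ndufs5-ps, a transcribed pseudogene. The mitochondrially encoded subunits are not analysed here.

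All tumors arose from 1000000 cells of 4T1, a metastatic murine breast cancer cell line, injected into a mammary fat pad of female BALB/c mice aged 6 to 10 weeks. From day 15 after injection, mice received the vehicle, 0.5% Natrosol (3 tumors, replicates 1 to 3), or 50 mg/kg BI (6 tumors, replicates 4 to 9), in both cases for 5 days. Whether any tumors shared a mouse is not given in the sources used here. The authors kept for analysis only tumors whose RNA quality was sufficient. Each tumor kept gave 1 messenger RNA library of the whole tissue, with between 16931607 and 33850245 counts on genes. The p-values therefore describe the spread between these tumors. In such bulk tissue, fewer cells of a type and less RNA per cell cannot be told apart. The epithelial keratins Krt8 and Krt18 were measured at 478 and 578 CPM (counts scaled to library size) in the vehicle group, and no gene of the epithelial marker list was at 0.

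Oxidative phosphorylation moves electrons from NADH (through complex I) and succinate (through complex II) to ubiquinone, on to cytochrome c through complex III, and to oxygen at complex IV. Complexes I, III and IV pump protons across the inner mitochondrial membrane, and complex V, the ATP synthase, lets them return through its Fo part while its F1 head makes ATP. Every complex but complex II combines protein made inside the mitochondrion with a larger number of subunits encoded in the nucleus. Transcripts from both genomes therefore have to be matched. In tumors the pathway is known for its balance with glycolysis and for supplying aspartate for growth.

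The nuclear genes of the complexes are known for promoters with sites for the respiratory factors NRF1 and GABP. The palindromic NRF1 core CGCATGCG, which reads the same on both strands, occurred in the promoters (250 bases before to 50 bases after the start, RefSeq, GRCm38.p6) of 11 of the 75 members with a promoter sequence, or 14.7%. It occurred in 2.1% of all 27025 promoters and in 4.1% of the 11017 promoters of tested genes. The 11 genes were Ndufa8, Ndufa11, Ndufaf4, Ndufaf5, Uqcr11, Uqcrc1, Cox6a1, Atp5g2, Atp5j, Atp5k and Atp5l. The GABP site CCGGAAGT (in reverse ACTTCCGG) was found in 6.7% of the members' promoters against 8.6% for tested genes, the YY1 core AGATGGCGG (in reverse CCGCCATCT) in 8.0% against 2.6%, and the ERR site CAAGGTCA (in reverse TGACCTTG) in 5.3% against 1.3%. In the 69 promoters of mitochondrial ribosome genes, the shares were 10.1% for the NRF1 core, 17.4% for GABP, 7.2% for YY1 and 2.9% for ERR. The NRF1 and YY1 shares are thus not particular to the members. A match in letters is a description and not a bound site. The 250 bases before the start are shown for 1 called and 2 uncalled members, with the NRF1 core in capitals.
Ndufa11 (GRCm38.p6 chr17:56717512-56717761, strand +): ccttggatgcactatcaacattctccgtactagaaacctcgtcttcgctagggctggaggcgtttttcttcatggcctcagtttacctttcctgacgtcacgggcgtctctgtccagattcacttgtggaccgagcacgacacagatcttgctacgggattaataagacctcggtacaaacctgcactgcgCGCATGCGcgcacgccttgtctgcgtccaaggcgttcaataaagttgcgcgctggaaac
Ndufa8 (GRCm38.p6 chr2:36049339-36049588, strand -): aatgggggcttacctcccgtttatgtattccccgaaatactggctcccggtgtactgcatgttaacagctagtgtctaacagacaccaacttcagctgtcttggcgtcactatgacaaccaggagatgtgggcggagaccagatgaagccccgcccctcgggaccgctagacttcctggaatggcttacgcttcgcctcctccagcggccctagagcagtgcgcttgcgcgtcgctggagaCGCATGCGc
Cox6a1 (GRCm38.p6 chr5:115348959-115349208, strand -): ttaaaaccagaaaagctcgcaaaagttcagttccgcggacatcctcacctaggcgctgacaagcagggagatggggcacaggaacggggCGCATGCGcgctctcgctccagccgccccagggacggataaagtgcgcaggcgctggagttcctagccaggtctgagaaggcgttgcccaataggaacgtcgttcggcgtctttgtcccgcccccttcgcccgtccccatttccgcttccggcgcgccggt
The core began 59, 9 and 161 bases before the start in this order. Of these 3 genes, Ndufa11 (supernumerary subunit of complex I) was higher in the BI group, whereas Ndufa8 (accessory subunit of complex I) and Cox6a1 (common isoform of a complex IV subunit) did not pass the test.

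To ask whether transcripts of these complexes differed with FAK inhibition, BI was compared with vehicle by edgeR's quasi-likelihood test. The test covered all 13966 genes with sufficient counts, with Benjamini-Hochberg adjustment over all of them. Protein levels, assembly and activity of the complexes were not measured in these libraries. A gene is called at an adjusted p of at most 0.05, fold changes are fitted BI against vehicle values on the log2 scale, and errors are standard errors (SE) or 95% intervals. Of 92 members tested, 4 were called lower in BI, Ndufs1, Ndufb9, Ndufab1 and Atp5c1. Another 5 were called higher, Ndufb8, Ndufb7, Ndufaf3, Ndufa11 and Cox6a2. Cox6a2 reached the level of the count filter in 1 vehicle and 6 BI tumors, and so was tested only with the help of BI. Over all genes, 14.1% were called lower and 14.6% higher, together 28.7%, against 9.78% of the members. The share was 8.45% of the 71 members with a mean of at least 20 CPM, where 32.0% of all genes at that level were called, and 8.33% of the 60 tested members under 1000 bases in length, against 19.5% of all such genes.

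The differences were small. The median log2 fold change of the members was -0.01 and that of all genes 0.00, and the median size of a change, either way, was 0.0766 for members and 0.189 for all genes. The median SE was 0.0835 for members and 0.0964 for all genes. In 84 of the 92 members, or 91.3%, the whole 95% interval lay within about 1.5-fold in either direction, compared with 64.0% of all genes. Among genes with a mean of at least 20 CPM, these shares were 100.0% of 71 members and 84.0% of all genes. The median size of a change at that level was 0.0705 for members and 0.144 for all genes. The cutoffs of the study, an unadjusted p of 0.05 and a change of about 1.5-fold, were passed upward by 1 member, Cox6a2, and by 9.59% of all genes. As given above, Cox6a2 entered the test only with the help of BI tumors. None of the members passed them downward, where 3.57% of all genes did, although 6 members with negative values had an unadjusted p under 0.05, and the count was also 0 with the adjusted p. All 6 BI tumors lay below all 3 vehicle tumors in 6 members (background 14.0% of genes) and above them in 3 (background 14.1%).

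The calls depended on the 3 vehicle tumors. Without vehicle replicate 1 there were 1 member lower and 4 higher, and without vehicle replicate 2 or vehicle replicate 3 there were 2 lower and 0 higher, at which point edgeR called 21.7% and 17.7% of all genes. Without BI replicate 7 or BI replicate 9 the number higher was 3. Ndufs1 was the member called whichever tumor was left out (adjusted p up to 0.049), and Atp5c1 was lost without vehicle replicate 1 (adjusted p = 0.0596). Ndufb9 and Ndufab1 were lost without any single vehicle tumor, with adjusted p of up to 0.069 and 0.0889, although their fold changes stayed between -0.23 and -0.18 and between -0.43 and -0.36. No member called higher remained so without vehicle replicate 2 or vehicle replicate 3.

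**Figure D1:**
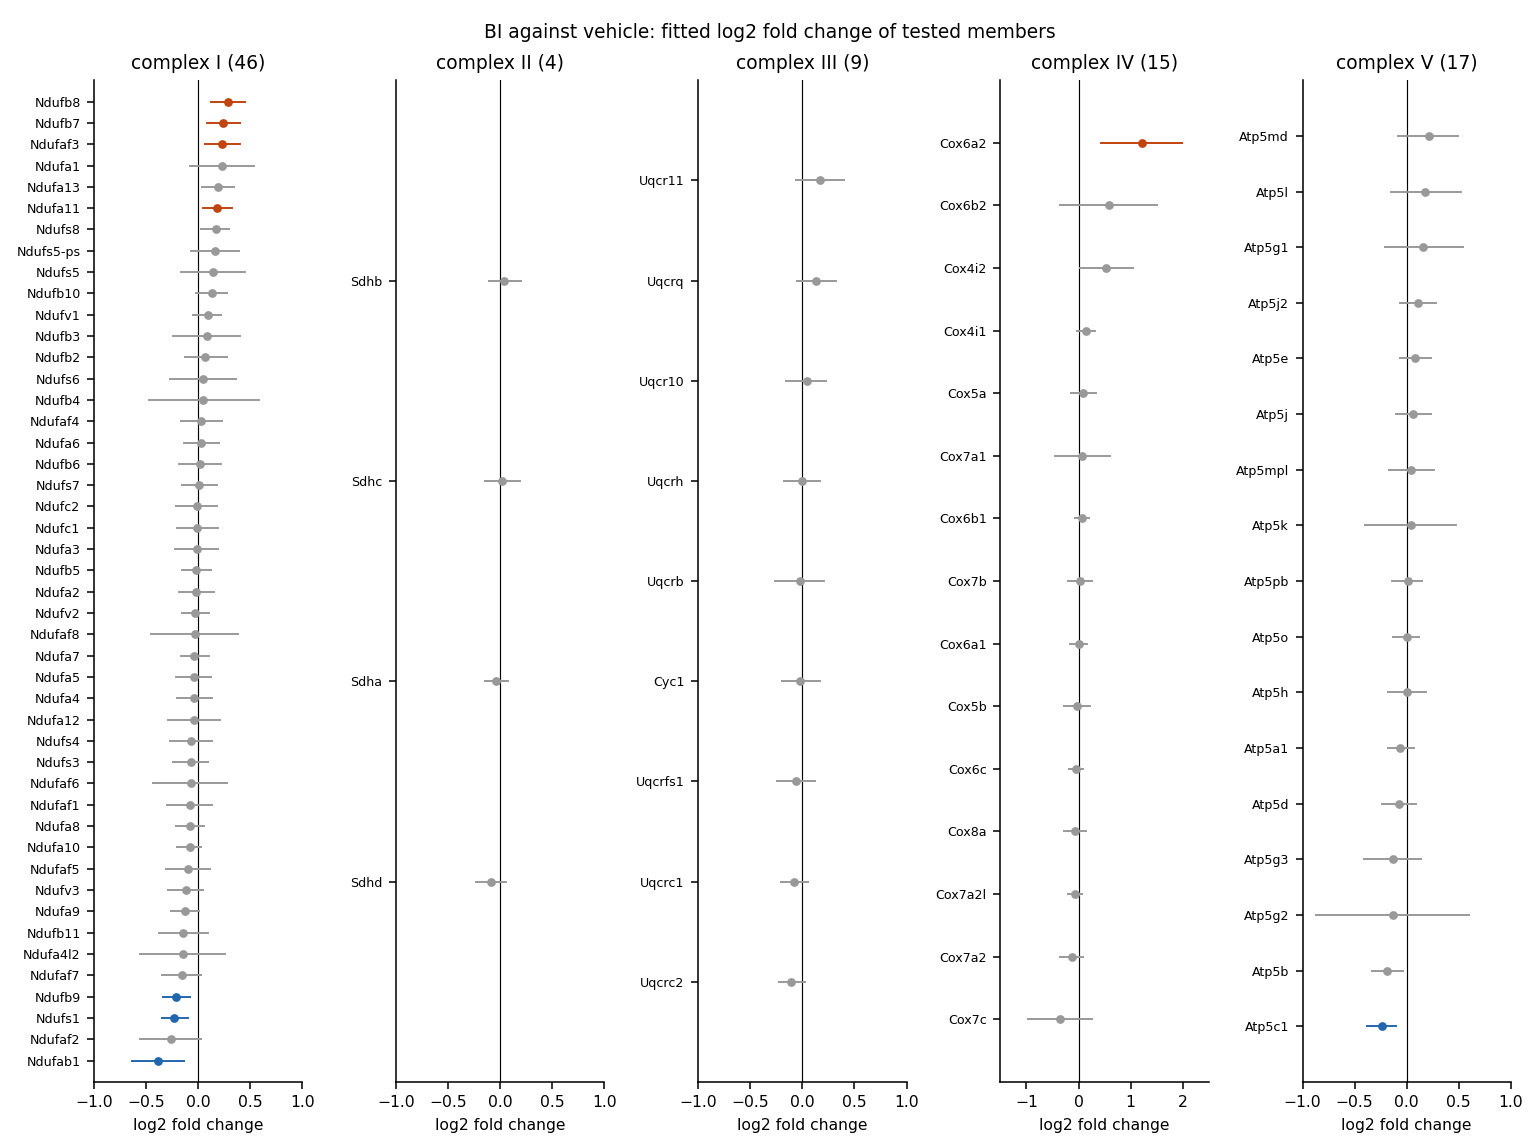
Fitted log2 fold change (x axis) of 91 tested members, 1 panel per complex with the number shown, as points with 95% intervals; blue marks members lower and orange members higher in BI at an adjusted p of at most 0.05, gray the rest, and the axis of complex IV is wider. Most intervals cross 0, the 9 called members are small shifts of at most 0.39 except Cox6a2 at 1.21, and complexes II and III hold no colored point.

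Complex I makes up 47 of the 92 tested members, of which 3 were lower (6.38%, background 14.1% of all genes) and 4 higher (8.51%, background 14.6%), with a median log2 fold change of -0.02. Its nuclear core subunits carry the flavin, the iron-sulfur clusters and the quinone site. Among them Ndufs1 (Entrez 227197, mm9 chr1:63190170-63223396), the large iron-sulfur subunit at the NADH end, was measured at 115, 110 and 113 CPM in vehicle replicates 1 to 3 and at 87.7, 99.8, 100, 93.1, 100 and 97.9 CPM in BI replicates 4 to 9. Every BI tumor lay below every vehicle tumor (log2 fold change -0.23, SE 0.056, adjusted p = 0.0111). In the mm9 annotation 248 of its exon bases overlap a noncoding gene, Gm11602, on the other strand, and whether strand was used in the counting is not given in the sources used here.

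Among the other core subunits, Ndufs8, which holds a pair of iron-sulfur clusters, lay above the vehicle range in all 6 BI tumors, with 45.3 to 52.2 CPM against 40.8 to 44.5 CPM (log2 fold change 0.17, adjusted p = 0.0646). The flavin-binding Ndufv1 (log2 fold change 0.09), Ndufv2 (-0.03), Ndufs3 (-0.07) and Ndufs7 (0.01) had adjusted p of 0.327, 0.717, 0.496 and 0.939, and their intervals ran from -0.24 at the lowest to 0.22 at the highest. The core subunits thus held values on both sides of 0 within 1 complex.

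Ndufb9 (Entrez 66218, mm9 chr15:58765365-58771044), an accessory subunit of the membrane arm, had the highest level per length in complex I, a mean of 293 RPKM (here CPM divided by the deposited gene length in kilobases). It was measured at 210, 211 and 207 CPM in the vehicle tumors and at 190, 166, 198, 175, 179 and 181 CPM in the BI tumors. No tumors overlapped, and the gap was narrow between vehicle replicate 3 and BI replicate 6 (log2 fold change -0.21, SE 0.0593, adjusted p = 0.0223). Ndufab1 (Entrez 70316, mm9 chr7:129228917-129245400), the mitochondrial acyl carrier protein, which also serves lipoic acid synthesis and iron-sulfur cluster assembly, showed the largest fall of the called members at -0.39 (SE 0.116, adjusted p = 0.026). Its level was 6.46, 6.35 and 5.86 CPM in vehicle and 4.91, 4.53, 4.34, 5.21, 4.96 and 4.46 CPM in BI, from between 77 and 199 counts a tumor. None of the 50-base windows of either transcript occurs a second time in mm9.

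Of the accessory subunits that were higher, Ndufb8 (Entrez 67264) is a subunit of the membrane arm. Its protein, which was not measured here, is used as a marker of assembled complex I. The RNA of Ndufb8 was measured at 53.9, 49.7 and 49.1 CPM in vehicle and at 61.8, 52.4, 61.9, 64.3, 63.8 and 68.0 CPM in BI. In 5 of 6 BI tumors it exceeded all vehicle tumors, and BI replicate 5 did not (log2 fold change 0.29, SE 0.0772, adjusted p = 0.0168). The mm9 annotation places it at more than a single position, and 91 exon bases are shared with Sec31b on the same strand.

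Ndufb7 (Entrez 66916, mm9 chr8:86090570-86095525), a membrane arm subunit on the intermembrane side, behaved alike, with 42.0, 37.7 and 35.1 CPM in vehicle and 45.3, 40.9, 46.6, 44.5, 45.9 and 48.4 CPM in BI. Again BI replicate 5 alone lay within the vehicle range (log2 fold change 0.24, SE 0.0731, adjusted p = 0.0267). Ndufa11 (Entrez 69875, mm9 chr17:56857185-56863671), whose promoter is shown above, was measured at 57.2, 53.5 and 51.7 CPM in vehicle and at 60.9, 57.3, 60.3, 59.8, 64.9 and 65.8 CPM in BI. Its groups did not overlap, although vehicle replicate 1 and BI replicate 5 were nearly equal (log2 fold change 0.18, SE 0.0617, adjusted p = 0.042). It was no longer called in 7 of the 9 fits that left out a tumor.

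Among the 8 assembly factors, Ndufaf3 (Entrez 66706, mm9 chr9:108468197-108469673), which acts early in the building of complex I, was higher, with 14.3, 14.5 and 15.0 CPM in vehicle and 18.0, 15.9, 16.9, 16.6, 17.5 and 18.1 CPM in BI. All BI tumors were above all vehicle tumors (log2 fold change 0.23, SE 0.0744, adjusted p = 0.0345). It was no longer called without any single vehicle tumor, BI replicate 4 or BI replicate 9 (adjusted p up to 0.106), nor without the filter on low counts (0.0662). Ndufaf2, an assembly factor related to the subunit Ndufa12, had a log2 fold change of -0.26 (95% interval -0.56 to 0.03, adjusted p = 0.158). It was below the vehicle range in 5 of 6 BI tumors, and BI replicate 9 was above it at 13.0 CPM. Without BI replicate 9 it was called (log2 fold change -0.35, adjusted p = 0.0326).

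Ndufa4 is named as a complex I gene but is now placed in complex IV, and its relative Ndufa4l2 is a known target of hypoxia-inducible factors. Ndufa4l2 was measured at 4.54, 6.17 and 5.33 CPM in vehicle and at 3.52 to 6.14 CPM in BI, so that the groups overlapped and the test was not passed (log2 fold change -0.15, 95% interval -0.56 to 0.26). Ndufa4 exceeded it per length 46.5 times in vehicle and 50.4 times in BI, and did not pass the test either (log2 fold change -0.04, adjusted p = 0.766). Of the 10 genes of a hypoxia response list that holds Ndufa4l2, 7 were lower in BI (70.0%, background 14.1%), among them Slc2a1 (glucose transporter, log2 fold change -0.63) and Car9 (carbonic anhydrase, -0.88), with adjusted p of 0.000212 and 0.000216.

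**Figure D2:**
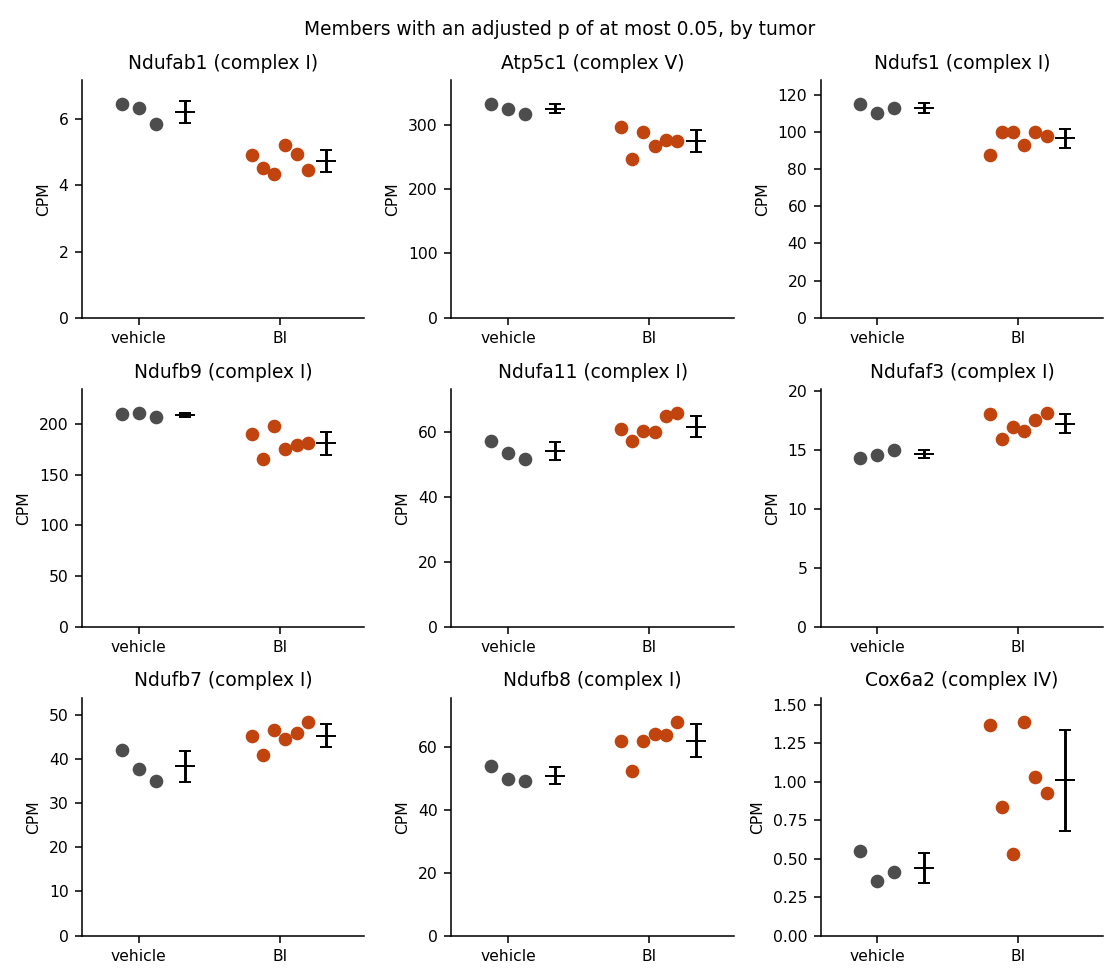
The 9 members with an adjusted p of at most 0.05 in order of fold change, as CPM (y axis from 0) in each of the 3 vehicle tumors (gray) and 6 BI tumors (orange), with the mean and SD in black. The first 4 panels show all BI tumors below all vehicle tumors, with BI means of 4.74 CPM for Ndufab1 and 275 CPM for Atp5c1, and no tumor in the Cox6a2 panel exceeds 1.39 CPM.

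Complex II is both an enzyme of the tricarboxylic acid cycle and the only complex here without a mitochondrially encoded subunit. None of its 4 members was called by edgeR (background 28.7% of all genes), DESeq2 or limma-voom, and none reached 0.05 before adjustment. The flavoprotein Sdha was measured at 231, 219 and 232 CPM in vehicle and at 210 to 228 CPM in BI (log2 fold change -0.04, 95% interval -0.15 to 0.07). Sdhb, the iron-sulfur subunit, gave 0.04 (-0.11 to 0.20). The membrane anchors Sdhc and Sdhd gave 0.02 (-0.15 to 0.19) and -0.09 (-0.23 to 0.05), and Sdhc had the highest level per length of the 4, 149 RPKM. All 4 intervals exclude a change of 0.24 in size, as called in Atp5c1 and Ndufb7, but not all exclude the smaller called changes. That of Sdhd includes -0.21, the value of Ndufb9, and those of Sdhb and Sdhc include 0.18, the value of Ndufa11. Levels per length differed 1.91 times between the lowest and the highest subunit, the smallest spread of the 5 complexes.

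Complex III likewise had no called member among 9 by these 3 tools (background 28.7% of all genes in edgeR). Its median log2 fold change was -0.02, and no p was 0.05 or less before adjustment. All 4 core members had negative values. They were Uqcrc2 (a core protein, -0.11, 95% interval -0.23 to 0.02), its partner Uqcrc1 (-0.08, -0.21 to 0.05), the Rieske protein Uqcrfs1 (-0.06, -0.24 to 0.12) and cytochrome c1, Cyc1 (-0.02, -0.20 to 0.17). Uqcrc2 was below the lowest vehicle tumor, at 154 CPM, in 3 of 6 BI tumors. The most abundant member per length was the hinge protein Uqcrh at 204 RPKM, with 110, 120 and 106 CPM in vehicle and 103 to 125 CPM in BI. Its log2 fold change was 0.00 (-0.18 to 0.17).

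Complex IV is known for subunits with paired isoforms, a common form and a form of particular tissues such as heart, muscle, lung or testis. None of the 11 genes of the common kind was called (background 28.7% of all genes). The widest interval among those at over 20 CPM was that of Cox5b, from -0.28 to 0.22. Cox4i1, the regulatory subunit, had the highest level per length, 460 RPKM, with 283, 289 and 304 CPM in vehicle and 374, 288, 318, 305, 314 and 336 CPM in BI. It exceeded the vehicle range in 5 of 6 BI tumors without passing the test (log2 fold change 0.14, 95% interval -0.02 to 0.31, adjusted p = 0.183). Cox6b1, which faces the intermembrane space, and Cox6a1 gave 0.07 and 0.00, and Cox7a2, Cox7a2l (a factor of supercomplex assembly) and Cox8a gave -0.13, -0.07 and -0.06, with adjusted p between 0.368 and 0.972. Cox7c, a small membrane subunit, had 9.28 to 14.7 CPM in vehicle and 5.21 to 13.4 CPM in BI (log2 fold change -0.36, 95% interval -0.98 to 0.25). Its value was -0.15 without vehicle replicate 2 and -0.52 without BI replicate 9, and 48.2% of the 50-base windows of its transcript occur elsewhere in mm9.

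The tissue isoforms were scarce in every tumor, and 4 of 5 were tested. The filter on low counts asked for about 0.477 CPM in 3 tumors, which Cox6a2 reached in 1 vehicle and 6 BI tumors and Cox6b2 in 1 vehicle and 2 BI tumors, so that both were tested only with the help of BI tumors. Cox6a2, the heart and skeletal muscle form (Entrez 12862, mm9 chr7:135348950-135349880), was counted 12, 8 and 14 times in vehicle and 29, 16, 11, 31, 18 and 16 times in BI. That is 0.55, 0.358 and 0.412 CPM against 1.37, 0.834, 0.531, 1.39, 1.03 and 0.927 CPM, with BI replicate 6 inside the vehicle range. Its log2 fold change of 1.21 (SE 0.355, 95% interval 0.43 to 1.98, adjusted p = 0.0245) was the largest of any member. It was lost without vehicle replicate 2 (adjusted p = 0.0896), vehicle replicate 3 (0.0945) or BI replicate 7 (0.0501). In the annotation, 66 of its exon bases overlap Itgad, an integrin of leukocytes, on the other strand. Per length, Cox6a1 exceeded Cox6a2 325 times in vehicle and 141 times in BI, so that Cox6a2 made up at most 1.01% of the pair in any tumor.

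Cox4i2, the form known from lung and from oxygen sensing, was measured at 1.74, 1.97 and 1.91 CPM in vehicle and at 3.83, 2.61, 1.88, 2.83, 3.02 and 2.09 CPM in BI, above the vehicle range in 5 of 6 tumors. It did not pass the test (log2 fold change 0.53, 95% interval 0.02 to 1.04, adjusted p = 0.11). Cox6b2, the testis form, was counted at most 15 times (0.58, -0.35 to 1.51), and Cox7a1, the muscle and brown fat form, reached 1.94 CPM (0.07, -0.45 to 0.60). Cox8b, also of muscle and brown fat, was counted 3, 0 and 6 times in vehicle and 5, 8, 6, 1, 3 and 19 times in BI. It was the only member removed by the filter on low counts.

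Markers of skeletal muscle, fat and endothelium moved as follows, and their part in these values was not tested. Of 8 skeletal muscle markers, 6 were tested and 0 were called by edgeR, and none reached 0.05 before adjustment. Their summed level ran from 4.95 to 20.3 CPM in vehicle and from 4.44 to 15.7 CPM in BI, with Pvalb at no more than 3 counts in any tumor. The list of 6 brown adipocyte markers holds 2 of the isoforms, Cox7a1 and Cox8b. The other 4 were not tested, with Cidea and Elovl3 at no more than 3 counts, and summed to 0.0894 to 0.324 CPM in vehicle and 0.0571 to 0.58 CPM in BI. Of 6 white adipocyte markers 0 were called, 2 reached 0.05 before adjustment, and the sum reached 344 CPM in a BI tumor against at most 70.2 CPM in vehicle. Of 6 endothelial markers, Kdr and Cdh5 were higher (log2 fold change 0.38 and 0.41, adjusted p = 0.0214 and 0.0231). That is 33.3% of the list, with a background of 14.6% of all genes.

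In complex V, 1 of 17 members was called, or 5.88% (background 28.7% of all genes). The F1 head makes ATP on its beta subunits as the central gamma stalk turns. The gamma subunit Atp5c1 (Entrez 11949, mm9 chr2:9977643-10002137) was measured at 332, 325 and 317 CPM in vehicle and at 297, 247, 288, 267, 276 and 275 CPM in BI, with no overlap (log2 fold change -0.24, SE 0.0624, adjusted p = 0.0139). The beta subunit Atp5b (Entrez 11947, mm9 chr10:127520329-127527447), the most abundant member of all per length at 480 RPKM, showed the same order without passing the threshold. It had 1001, 939 and 1000.5 CPM in vehicle and 905, 785, 860, 840, 893 and 890 CPM in BI (log2 fold change -0.19, 95% interval -0.33 to -0.04, adjusted p = 0.0507). DESeq2 and limma-voom put Atp5b below the threshold, with adjusted p of 0.0101 and 0.0397.

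The other F1 subunits, alpha (Atp5a1), delta (Atp5d) and epsilon (Atp5e), gave -0.06 (95% interval -0.18 to 0.07), -0.07 (-0.24 to 0.09) and 0.08 (-0.06 to 0.23). The summed level of the 5 F1 subunits was 2249.8, 2122.2 and 2187.0 CPM in vehicle and 2070.1, 1829.4, 2007.7, 1954.9, 2058.4 and 2038.1 CPM in BI. All 6 BI tumors lay below the vehicle range, as they did in 14.0% of all single genes. The means of this sum, 2186.4 and 1993.1 CPM, include those of Atp5b (980 and 862 CPM) and Atp5c1 (325 and 275 CPM). The fall in the sum thus lies mostly in these genes and is not a result for each F1 subunit. The 12 Fo and stalk members summed to between 749 and 819 CPM in vehicle and between 686 and 896 CPM in BI, and 0 of them was called by edgeR, DESeq2 or limma-voom or reached 0.05 before adjustment. The difference between F1 and Fo was not tested. Atpif1 (also Atp5if1), which inhibits the reverse reaction of the synthase and lies outside the set, had 141 ± 4.00 CPM in vehicle (SD, n = 3) and 148 ± 9.54 CPM in BI (SD, n = 6), with a log2 fold change of 0.07 (-0.06 to 0.21).

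**Figure D3:**
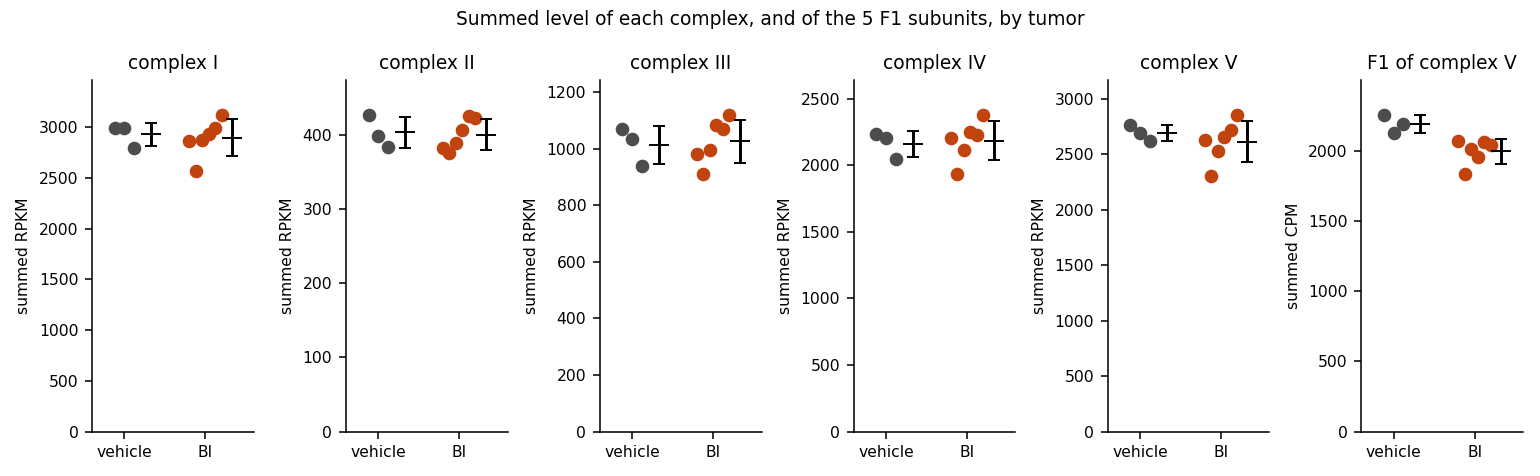
Summed level of all members of each complex (RPKM, y axis from 0) and of the 5 F1 subunits (CPM) in the 3 vehicle tumors (gray) and 6 BI tumors (orange), with mean and SD in black. The groups overlap in all 5 complexes, and BI replicate 5, the second orange point, is the lowest tumor in each; in the F1 panel all BI tumors lie under the vehicle tumors.

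Summed over all 93 members, the level per length was 9194.0 ± 367 RPKM in vehicle (SD, n = 3) and 9116.6 ± 605 RPKM in BI (SD, n = 6), a ratio of 0.992. The members took between 0.804% and 0.861% of all counts in vehicle and between 0.716% and 0.871% in BI. By complex, the ratio of BI to vehicle was 0.988 for complex I, 0.993 for complex II, 1.01 for complexes III and IV and 0.971 for complex V. BI replicate 5 was the lowest of the 9 tumors in all 5 complexes and reached 8091.0 RPKM in all, and BI replicate 9 was the highest overall with 9878.8 RPKM. The vehicle tumors ran from 8780.6 to 9482.1 RPKM, so that BI tumors lay on both sides of them.

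Levels per length within a complex differed far more than the groups did. The highest exceeded the lowest member 63.3 times in complex I, 4.32 times in complex III, 621 times in complex IV and 400 times in complex V. The lowest in complex I was Ndufaf5 (4.63 RPKM), an assembly factor and not a subunit. In complex IV it was the testis form Cox6b2 (0.741 RPKM), and in complex V Atp5g2 (1.20 RPKM), which has copies elsewhere. These ratios are therefore not spreads among the common subunits alone. Only reads with a single alignment were counted, so members with copies elsewhere in the genome can be counted low. Of 91 members with a transcript on mm9, 61 had no 50-base window that occurs unchanged at another place, and 9 had more than 50% of windows repeated. The 9 were Atp5g2 (100%), Atp5l (89.4%), Ndufs5 (80.0%), Atp5md (79.8%), Atp5g1 (66.2%), Atp5h (63.9%), Cox5b (62.7%), Uqcrb (61.5%) and Cox7a2l (53.7%). Their median level was 48.4 RPKM, with 1.20 RPKM at the lowest, against 79.0 RPKM for the other 82. The paired mate can still place a read, so these shares are not shares of reads lost. None of the 9 was called.

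Of the 3 genes for the c subunit that forms the ring of Fo, Atp5g3 was counted at 303 RPKM, Atp5g1 at 5.20 RPKM and Atp5g2 at 1.20 RPKM. Atp5g3 has no repeated window, whereas 66.2% of the windows of Atp5g1 and all those of Atp5g2 recur elsewhere, so that their levels cannot be ranked against it. Ndufs5, a complex I subunit of the intermembrane side, is a further case, with 6.52 ± 0.911 CPM in vehicle (SD, n = 3) and 7.18 ± 0.987 CPM in BI (SD, n = 6). The transcribed pseudogene Ndufs5-ps, which RefSeq places on chromosome 16, was counted higher than the gene, at 17.3 ± 1.15 and 19.3 ± 2.24 CPM. Its deposited length is greater, and per length the levels were closer. Ndufs5-ps had 17.6 RPKM in vehicle and 19.7 RPKM in BI, against 12.8 and 14.1 RPKM for Ndufs5. The first 120 coding bases of Ndufs5 (mm9 chr4:123389953-123395445) are shown beside the stretch at mm9 chr16:42955744-42955863, where GENCODE marks a pseudogene under another name, BC002163, since this near identity bears on which of the 2 a read is given to. Capitals mark the bases that differ.
Ndufs5: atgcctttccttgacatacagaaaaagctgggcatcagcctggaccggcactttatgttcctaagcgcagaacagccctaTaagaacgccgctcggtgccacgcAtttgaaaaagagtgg
chromosome 16 copy: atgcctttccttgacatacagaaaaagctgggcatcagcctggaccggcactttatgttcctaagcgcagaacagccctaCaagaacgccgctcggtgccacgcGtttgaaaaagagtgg
With positions counted from 1 at the first base of the start codon and the base of Ndufs5 given first, the differences were T81C and A105G. The 2 sequences were 99.6% identical over 504 aligned bases. Neither Ndufs5 (log2 fold change 0.14, 95% interval -0.17 to 0.45) nor Ndufs5-ps (0.16, -0.07 to 0.39) passed the test.

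Atp5l encodes subunit g of Fo and had 10.1 ± 1.02 CPM in vehicle (SD, n = 3) and 11.4 ± 2.25 CPM in BI (SD, n = 6), with a log2 fold change of 0.18 (95% interval -0.15 to 0.52). Its first 115 coding bases recur with 8 differences at mm9 chr7:53189218-53189332, inside the gene Ccdc114, and the 2 sequences are shown for that reason.
Atp5l: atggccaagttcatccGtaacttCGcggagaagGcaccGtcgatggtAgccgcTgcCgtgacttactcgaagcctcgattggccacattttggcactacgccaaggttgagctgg
chromosome 7 copy: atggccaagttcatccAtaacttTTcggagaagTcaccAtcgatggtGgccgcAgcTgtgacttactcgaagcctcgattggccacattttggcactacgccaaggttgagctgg
Capitals mark the differing bases, G17A, C24T, G25T, G34T, G39A, A48G, T54A and C57T, counted as for Ndufs5.

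**Figure D4:**
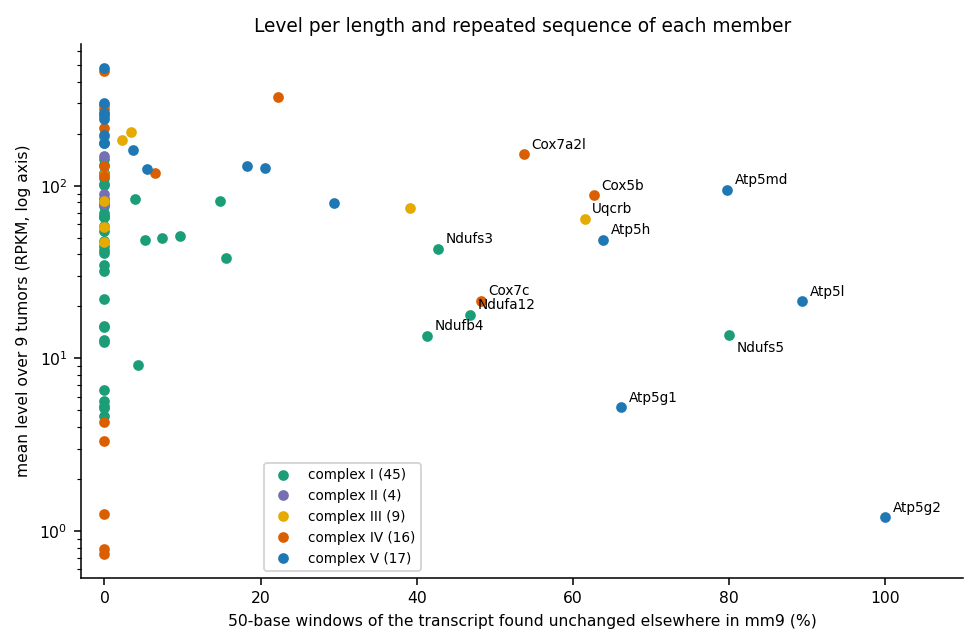
Mean level of each of 91 members over the 9 tumors (RPKM, log axis) against the share of the 50-base windows of its transcript found unchanged elsewhere in mm9 (%), colored by complex, with names where the share exceeds 40%. Atp5g2, at 100%, lies at 1.20 RPKM, but Atp5md at 79.8% lies at 94.1 RPKM, and low members also occur at 0%.

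The genes around the complexes were examined next, as lists. Assembly factors of the complexes gave 1 lower and 0 higher of 37 (median log2 fold change -0.03), the complex I factor Tmem186 at -0.24 (adjusted p = 0.0496). Coenzyme Q synthesis and cytochrome c gave 1 lower of 14, Pdss1, which makes the tail of coenzyme Q (-0.38, adjusted p = 0.0382). The mitochondrial ribosome, which translates the mitochondrially encoded subunits, gave 8 lower and 1 higher of 78 (median -0.05). The leading members were Mrpl9 (-0.26, adjusted p = 0.0085) and Mrps30 (-0.29, adjusted p = 0.00942), and Mrpl41 was higher (0.27, adjusted p = 0.0189).

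The tricarboxylic acid cycle and pyruvate dehydrogenase, which supply NADH and succinate, gave 4 lower and 0 higher of 17 (median -0.09). These were Suclg2 (succinyl-CoA ligase, -0.37, adjusted p = 0.000886), Pdhb (pyruvate dehydrogenase, -0.22, adjusted p = 0.00788), Idh2 (-0.26, adjusted p = 0.0084) and Dld (-0.20, adjusted p = 0.0113), the last 2 named after their values were seen. Of 6 ADP/ATP carriers and porins, Vdac2 and Vdac1, channels of the outer membrane, were lower (-0.15 and -0.21, adjusted p = 0.0427 and 0.0459). Of 14 regulators of mitochondrial gene expression, 3 were lower and 0 higher. Tfam, which packages and transcribes mitochondrial DNA, had 64.3 ± 2.66 CPM in vehicle (SD, n = 3) and 51.8 ± 2.61 CPM in BI (SD, n = 6), a log2 fold change of -0.31 (adjusted p = 0.00224). Gabpb1, a subunit of GABP, and Tfb1m, which modifies mitochondrial ribosomal RNA and was named after its value was seen, gave -0.24 and -0.35 (adjusted p = 0.00975 and 0.0275). Nrf1 and Gabpa, named after their values were seen, had -0.14 and -0.16 and did not pass the test (adjusted p = 0.0723 and 0.105).

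The shares called lower are read against the 14.1% of all genes called lower. Below it lay 2.70% of assembly factors, 7.14% of the coenzyme Q and cytochrome c list and 10.3% of the mitochondrial ribosome. Above it lay 23.5% of the cycle enzymes, 21.4% of the regulators and 33.3% of the 6 carriers and porins. The difference of these shares from the background was not tested. Of the members, 4.35% were lower. In the cytosolic ribosome, whose transcripts are about as short as those of the members (median 693.5 and 692 bases), 22 of 87 were lower (25.3%, background 14.1%) and 0 higher (background 14.6%), with a median log2 fold change of -0.22. Its leading genes were Rpl10a (-0.40, adjusted p = 0.00327) and Rpl27a (-0.34, adjusted p = 0.00414). This list was drawn by symbol prefix and also holds names such as Rps19bp1, Rpl3l and Rpl34-ps1. Its genes too were counted from single alignments, and their repeated windows were not measured.

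**Figure D5:**
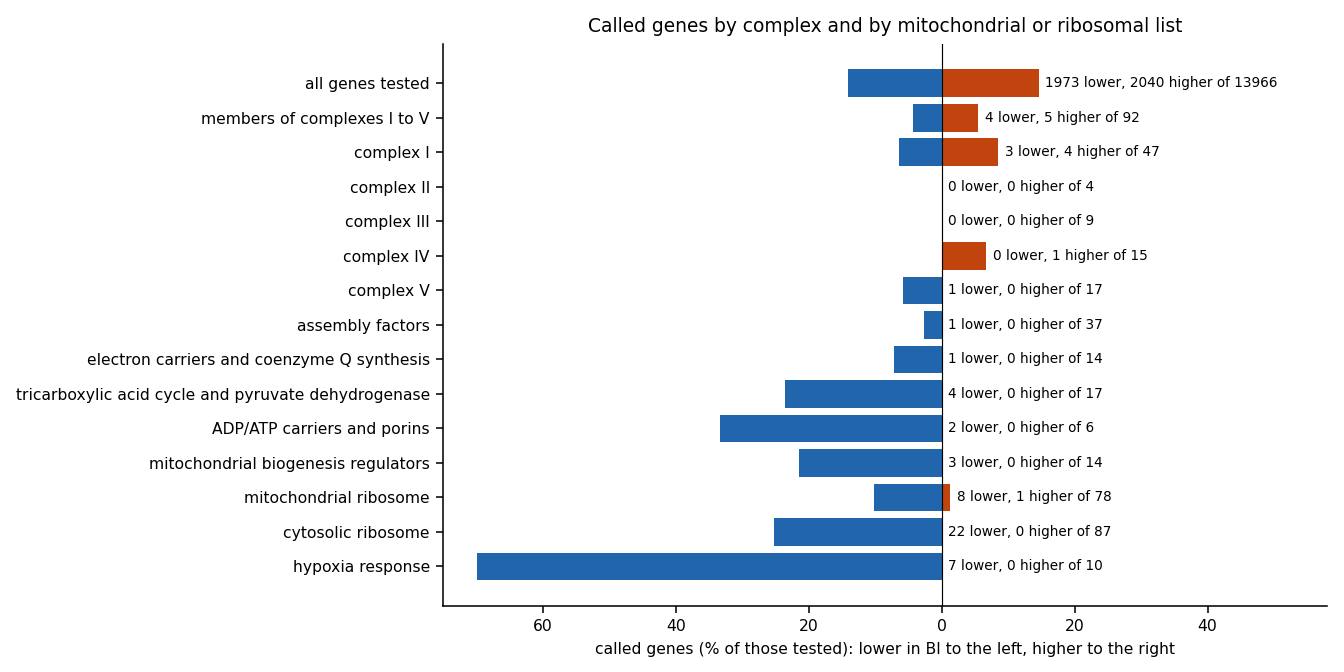
Share of tested genes called lower in BI (blue, to the left) and higher in BI (orange, to the right) at an adjusted p of at most 0.05, for all genes, the members, each complex and 8 lists, with counts beside the bars. The bars of the members and of all 5 complexes are shorter than those of all genes in both directions, and the lists other than the mitochondrial ribosome have no bar to the right.

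Some markers of other cell types also differed between the groups, and their part in the members' values was not tested. The background for these counts is again 14.1% lower and 14.6% higher. Of 8 macrophage markers 7 were higher and Cd14 was lower, and their summed level was 1748.2 to 2308.4 CPM in vehicle and 3301.9 to 4003.0 CPM in BI, with none at 0. C1qb and Csf1r led the rises (log2 fold change 1.11 and 0.91). Of 7 T cell markers 6 were higher, led by Cd3e and Cd3g (1.14 and 1.08), with sums of 68.5 to 78.8 CPM and 126 to 186 CPM. Of 6 neutrophil markers 4 were lower, led by Retnlg and S100a9 (-1.43 and -1.30), with sums of 1081.3 to 1242.4 CPM and 366 to 834 CPM. Of 7 fibroblast markers only Col1a2 was higher (0.92), or 14.3%, which is near the background. The fibroblast sums overlapped, at 1900.2 to 3307.5 CPM and 2526.7 to 5682.6 CPM. Of 10 epithelial markers Krt18 and Krt8 were lower (-0.50 and -0.28) and none was higher, although 6 of the 10 had positive values, with a range from -0.85 to 1.36 and a median of 0.13. Their sums were 965 to 1190.4 CPM and 759 to 967 CPM. Of 10 proliferation genes 3 were lower, Top2a, Bub1 and Ccnb1 (-0.62, -0.57 and -0.51), the last named after its value was seen.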

How the data were processed

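RNA of 9 4T1 tumors (3 vehicle, 6 BI) was sequenced as stranded paired-end libraries of 50 bases. The authors aligned reads to mm9 with STAR, keeping single alignments, and with QuasR counted reads starting in RefSeq exons; the deposited values are raw counts per gene, with gene lengths. Whether strand and both mates were used is not given in the sources used here. Entrez identifiers were matched to RefSeq symbols (18700 of 18755 genes) and to mm9 positions in GENCODE (91 members).

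Counts were normalized by TMM and tested in edgeR 4.0.16 (R 4.3.3) with filterByExpr (minimum count 10, minimum total 15) and quasi-likelihood F tests of BI against vehicle without covariates; p-values were adjusted by Benjamini-Hochberg over 13966 genes. RPKM are TMM CPM per kilobase of the deposited length. Total counts of 16931607 to 33850245 make 1 count 0.0295 to 0.0591 CPM. Alternatives were RLE, library size alone, no filter, at least 1 CPM in 3 tumors, DESeq2 1.42.0, limma-voom 3.58.1, a spline offset on gene length (5 degrees of freedom), and leaving out each tumor; fits were tested on simulated data. Named genes were, per complex, the 3 smallest p among called members in each direction and the highest level per length, core, F1 and complex II subunits, isoform pairs, the 3 largest rises and falls, and the 2 smallest p per list and direction; other names are marked or describe copies and promoters. The values of 1 gene of complex I are not reported here. Members and lists were chosen with earlier results of these data known.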

Additional observations from a re-analysis of the deposited data

Results flagged for a closer look

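Among the 6 BI tumors, 46 sets of values (41 named members and 5 summed complexes) were examined for a tumor far from the others by Dixon's ratio, of which chance flags about 1 in 20. There were 3. Cox6b1 was 128 CPM in BI replicate 5, with the next lowest at 141 CPM (ratio 0.637, critical value 0.625). Cox7a2l was 188 CPM in BI replicate 4, with the next highest at 172 CPM (ratio 0.730). Cox8b was 1.10 CPM in BI replicate 9, from 19 counts, with the next highest at 0.417 CPM (ratio 0.648). None of these genes was called, and Cox8b was not tested.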

How the results depend on the processing

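The 4 members lower in BI stayed between 4 and 6, and the 5 higher between 3 and 8, under the 7 other normalizations, filters and tools. The number higher was 3 without a filter on low counts, where 18755 genes were adjusted over, and 8 with the gene length offset. Leaving out a tumor gave 1 to 5 lower and 0 to 7 higher, the smallest numbers without a vehicle tumor. The median log2 fold change of each complex moved by less than its SD between BI tumors, with ranges over the tumors left out of -0.05 to 0.01 for complex I, -0.03 to 0.01 for II, -0.08 to 0.02 for III, -0.05 to 0.09 for IV and -0.02 to 0.04 for V. Among the 40 named members that were tested, directions turned only in 8 uncalled members. With the length offset Cox6a1, Ndufa4 and Uqcrh gave 0.04, 0.01 and 0.03, and with the 1 CPM filter Cox6a1 and Uqcrh each gave 0.01. Over the tumors left out the ranges were -0.08 to 0.06 for Cox6a1, -0.14 to 0.03 for Cox8a, -0.08 to 0.07 for Cyc1, -0.08 to 0.01 for Ndufa4, -0.05 to 0.12 for Ndufs7, -0.04 to 0.05 for Sdhc, -0.10 to 0.01 for Uqcrfs1 and -0.04 to 0.05 for Uqcrh. Causes were not tested. Cox6b2 gave no value in the fits whose filter removed it. No paired analysis was made because the labels give no pairing of vehicle and BI tumors. Depth limits the isoforms under about 2 CPM, whose intervals span more than 1.5-fold, and 3 vehicle tumors limit all calls.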
